A study of Mus musculus with 20 samples.

Results

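The 7 genes described here encode immunoglobulin-type leukocyte adhesion molecules of the endothelial surface: Vcam1, Icam1, Icam2, Madcam1, Alcam, Mcam and Cd99l2. They were chosen by name, as the array probe sets annotated with exactly one of these symbols, and make up 7 of the 22180 genes so annotated in the series. Each had 1 probe set: 17409649 for Vcam1, 17515074 for Icam1, 17270877 for Icam2, 17234898 for Madcam1, 17330918 for Alcam, 17516518 for Mcam and 17542180 for Cd99l2. All 7 passed the filter on low values and were among the 14178 genes tested. Cd99l2 is grouped with the others for its role in leukocyte passage, as its protein, a relative of CD99, has no immunoglobulin domain.

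Leukocytes leave the blood in steps: selectins slow them, chemokines activate their integrins, and the integrins then bind immunoglobulin-type ligands on the endothelium before the cell crosses the vessel wall. Inflammatory cytokines acting through NF-kB are the textbook inducers of VCAM-1 and ICAM-1, whereas ICAM-2 is carried by resting endothelium. In contact hypersensitivity, a hapten such as DNFB (2,4-dinitrofluorobenzene) primes T cells during sensitisation, and a later application to the ear draws leukocytes through the dermal venules.

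Endothelial cells had been sorted as CD31+CD45-Ter119- cells from collagenase I digests of mouse ears and profiled on 20 Affymetrix arrays. There were 4 arrays of DNFB-challenged ears and 4 of vehicle ears from NICD1-EC-OE mice (NICD below), which express constitutively active Notch1 in endothelium, and 6 arrays of DNFB-challenged and 6 of vehicle ears from control mice. Per the labels, mice received 5 daily tamoxifen injections, DNFB went on the skin on days 0 and 1 and on the ear on day 5, and tissue was taken after 24 hours. The genotype label of the NICD mice reads Pdgfb-CreERT2; R26-NICD, while the growth protocol names RosaNICD/NICD with CDH5-iCre, so the endothelial promoter that drove the Cre is not settled by the labels. The control genotype is given only as control, and the alleles those mice carried are not stated. One array, NICD vehicle replicate 4, is vehicle by title and DNFB by description and was kept as vehicle. Its position on the first principal component, computed without these 7 genes, was -44.3, close to the other vehicle arrays and far from the NICD DNFB arrays (32.0 to 34.6). Whether each array came from a separate animal is not stated, so p-values measure the spread between these samples, which may be partly technical.

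Replicate arrays of a group correlated at 0.944 to 0.981 over the probe sets. Pecam1, which encodes CD31, the antigen used in the sort, was high on every array (means of 11.48 in NICD DNFB, 11.72 in NICD vehicle, 11.51 in control DNFB and 11.72 in control vehicle ears, log2). NICD and control arrays differed in ways that bear on every comparison of genotypes. The median of an array was 3.52 to 3.62 in NICD and 3.87 to 3.98 in control arrays. Xist was 8.47 to 9.07 in NICD and 2.27 to 3.16 in control arrays, and Eif2s3y, a Y-linked gene, 2.11 to 2.79 in NICD and 6.08 to 7.12 in control arrays. Genotype, sex and whatever set the array medians apart therefore cannot be told apart here, and the labels name no batch. Comparisons of DNFB with vehicle are made within a genotype, and so within the same sex and range of array medians.

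Values below are log2 RMA values (robust multi-array average, a probe set summary), so a difference of 1 is a doubling. Differences are given with their standard errors, and a gene is said to have risen or fallen where limma's p, adjusted over all 14886 probe sets tested by the Benjamini-Hochberg method, was under 0.05. Probe sets differ in brightness, so levels are compared between groups and not between genes. The arrays measure RNA from a sorted pool, in which fewer cells of a type and less RNA per cell cannot be told apart.

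The stretch just upstream of the transcription start was available from RefSeq (GRCm38.p6) for 5 of the 7 genes, and 3 of these promoters are shown because their genes took different courses with DNFB: Icam1 fell in control mice, Alcam rose and Cd99l2 fell in both genotypes. Each shows the 250 bases upstream of the start, with capitals marking letters that match 1 of 3 motifs searched on both strands: the NF-kB consensus, the variant NF-kB site known from the human ICAM1 promoter (ICAM1-type site below), and TGGGAA, the core of the site of RBPJ, the DNA-binding partner of Notch. The Icam1 stretch is chr9:21015690-21015939 on the plus strand, the Alcam stretch chr16:52453082-52453331 on the minus strand and the Cd99l2 stretch chrX:71492850-71493099 on the minus strand.
Icam1: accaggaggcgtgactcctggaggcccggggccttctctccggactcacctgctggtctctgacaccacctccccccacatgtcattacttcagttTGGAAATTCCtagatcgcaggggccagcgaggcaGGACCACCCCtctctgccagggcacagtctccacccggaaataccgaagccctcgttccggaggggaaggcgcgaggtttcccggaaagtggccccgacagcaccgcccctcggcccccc
Alcam: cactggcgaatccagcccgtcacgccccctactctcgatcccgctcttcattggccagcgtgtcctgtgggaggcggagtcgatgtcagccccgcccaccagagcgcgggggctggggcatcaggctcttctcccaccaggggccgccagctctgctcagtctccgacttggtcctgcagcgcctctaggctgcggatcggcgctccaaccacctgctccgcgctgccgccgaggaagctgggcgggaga
Cd99l2: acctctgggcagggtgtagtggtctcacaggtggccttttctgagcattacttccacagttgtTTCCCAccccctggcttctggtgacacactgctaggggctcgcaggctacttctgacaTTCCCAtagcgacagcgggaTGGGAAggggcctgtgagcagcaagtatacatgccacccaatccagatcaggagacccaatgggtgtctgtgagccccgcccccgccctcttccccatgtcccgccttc
The Icam1 stretch held the ICAM1-type site, its first run of capitals, at bases 154 to 145 before the start. It also held a match to the loose NF-kB pattern, GGACCACCCC, at bases 120 to 111. The ICAM1-type site occurred in 25 of 32851 promoters of the same length (0.0761%), the loose NF-kB pattern in 23.2% and TGGGAA in 21.6%. The Cd99l2 stretch held TGGGAA 3 times, on the minus strand at bases 187 to 182 and 129 to 124 and on the plus strand at bases 109 to 104. The Alcam and Mcam stretches held none of the motifs, and the Madcam1 stretch held both the loose NF-kB pattern and TGGGAA, partly on the same bases. A match is a description of letters and no evidence of binding, and no match says only that the letters are not in this window.

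The first comparison asks what DNFB challenge did to these transcripts within each genotype. In NICD mice, Vcam1 and Alcam rose, Cd99l2 fell, and Icam1, Icam2, Mcam and Madcam1 did not pass the test, with 38.1% of all probe sets passing (20% higher and 18.1% lower). In control mice, Alcam rose, Cd99l2, Icam1 and Icam2 fell, and Vcam1, Mcam and Madcam1 did not pass, with 47.2% of all probe sets passing (23.7% higher and 23.6% lower). A call by itself is thus common among all probe sets, and the sizes below carry more of the description. The median difference over the 7 genes was 0.09 in NICD and -0.07 in control mice, against 0.01 and -0.00118 over all probe sets tested. The DNFB and vehicle arrays did not overlap for 4 of the 7 genes in NICD mice (37.3% of all probe sets) and for 2 in control mice (26.9%). The 4 in NICD mice include Madcam1, which exceeded the array's median on 5 arrays. Of these, 3 were NICD vehicle arrays, the higher group here, so its place in this count is a description only.

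**Figure D1:**
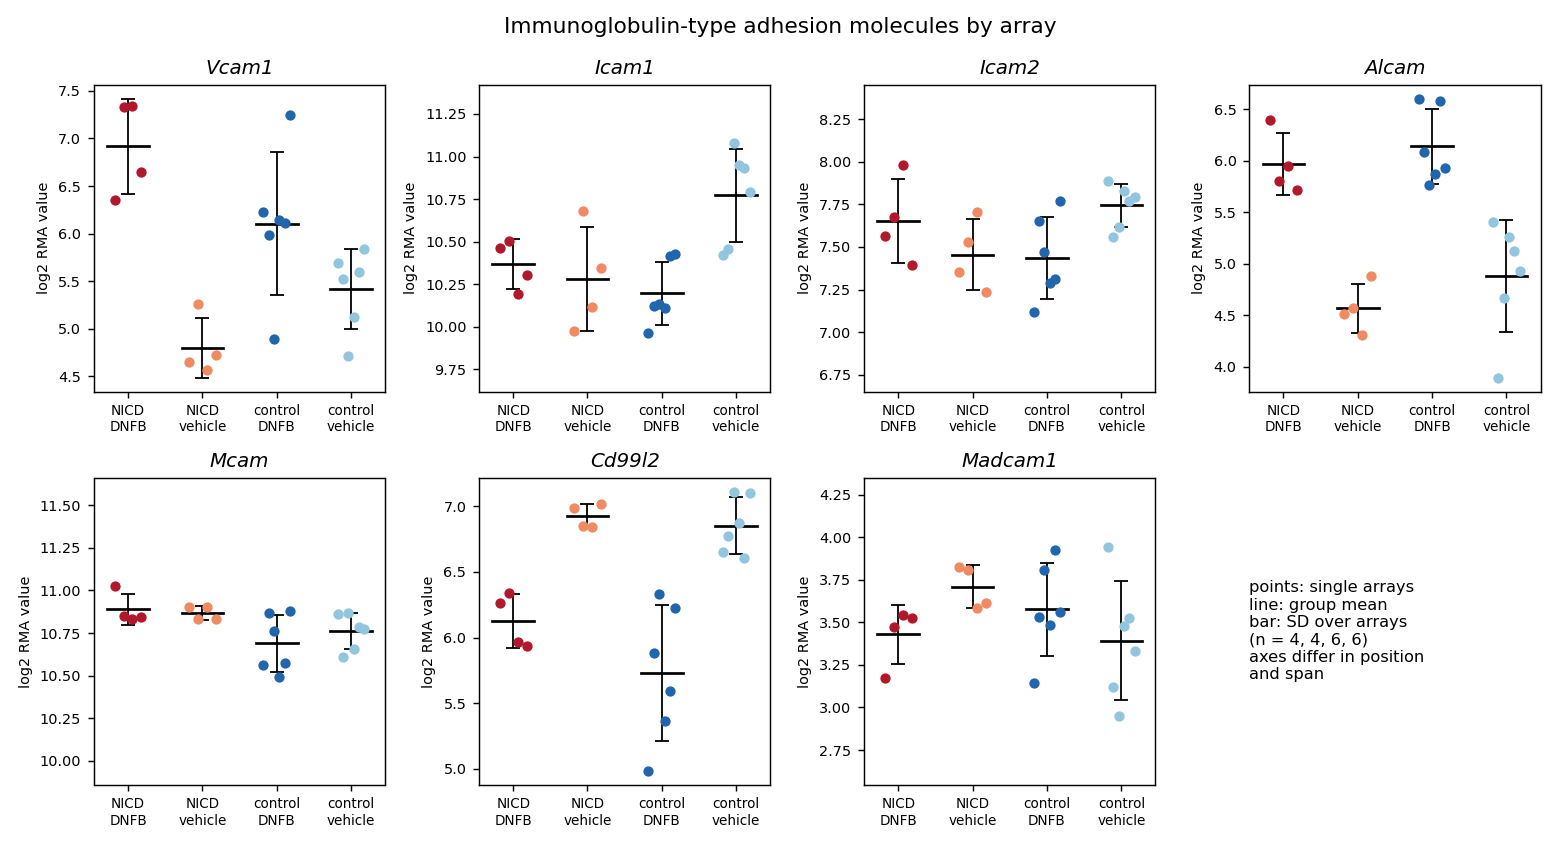
Log2 RMA value of each of the 7 genes on every array, by group (points are arrays, lines are group means, bars are SD, n = 4, 4, 6 and 6). The axes differ in position and span. Vcam1 and Alcam sit higher and Cd99l2 lower in the DNFB groups, and Mcam stays within 10.49 to 11.03 on all 20 arrays.

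Vcam1 encodes VCAM-1, the cytokine-induced ligand of the integrin formed by Itga4 and Itgb1 on lymphocytes, monocytes and eosinophils. It read 6.35, 7.33, 7.34 and 6.65 in NICD DNFB ears, against 4.65, 5.26, 4.57 and 4.72 in NICD vehicle ears. The lowest NICD DNFB array was 1 log2 unit or more above the highest NICD vehicle array, so the groups were far apart. The difference was 2.12 ± 0.35, a 4.34-fold rise (adjusted p 6.87e-05, 95% interval 1.38 to 2.85), and lay at percentile 99.2 of all probe sets tested. In control mice Vcam1 ranged from 4.89 to 7.25 (median 6.13) in DNFB ears and from 4.71 to 5.84 (median 5.56) in vehicle ears. Of the 6 control DNFB arrays, 5 lay above every control vehicle array, and replicate 3 was the exception. The difference of 0.69 ± 0.29 did not pass (adjusted p 0.0557, 95% interval 0.09 to 1.29).

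The control result for Vcam1 turned on single arrays. Control DNFB replicate 3 had not only the lowest Vcam1 of its group but also the lowest Alcam (5.77), the highest Cd99l2 (6.34), the lowest Ptprc (4.26) and the lowest position on the first principal component (31.8, in a group reaching 56.2). Without that array the Vcam1 difference in control mice was 0.93 and passed (adjusted p 0.00437), and without control vehicle replicate 6 it was 0.77 and passed (adjusted p 0.0439). Over all 20 fits that left out 1 array, it ranged from 0.46 to 0.93. Past the threshold it also came under quantile normalization (0.74, adjusted p 0.0447), cyclic loess (0.73, adjusted p 0.0453) and array weights (0.76, adjusted p 0.0290), and relative to Pecam1 (0.90, adjusted p 0.0163). With the replicate number fitted as a block it passed too, on numbers 1 to 6 (adjusted p 0.0234) and within genotype (adjusted p 0.00479). Group means were 6.92 ± 0.50 in NICD DNFB, 4.80 ± 0.31 in NICD vehicle, 6.10 ± 0.75 in control DNFB and 5.41 ± 0.42 in control vehicle ears (SD). As deposited, NICD mice thus held both the highest and the lowest group. In vehicle ears NICD minus control was -0.61 as deposited and -0.29 with each array centred on its median. It was -0.28 under quantile normalization and -0.31 under cyclic loess. The 2 control groups, which lay between, did not differ past the threshold in the main fit, on values as deposited, nor did the 2 vehicle groups. Its pooled spread within groups, an SD of 0.54, was larger than that of 95.5% of probe sets tested.

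Icam1 encodes ICAM-1, which the integrins of Itgal and of Itgam, each paired with Itgb2, use for firm adhesion and crawling. It read 10.46, 10.51, 10.19 and 10.31 in NICD DNFB ears, against 9.98, 10.68, 10.12 and 10.35 in NICD vehicle ears. These groups overlapped throughout, with a difference of 0.09 ± 0.17 (adjusted p 0.732, 95% interval -0.26 to 0.43). Control mice had Icam1 ranging from 9.96 to 10.43 (median 10.13) in DNFB ears and from 10.42 to 11.08 (median 10.86) in vehicle ears. Control DNFB arrays thus lay below control vehicle arrays, apart from a slight overlap near 10.42. Icam1 fell by 0.58 on the log2 scale in control mice (SE 0.14, adjusted p 0.00154), and passed in all 20 fits that left out 1 array (adjusted p up to 0.0050). As deposited, group means were 10.37 ± 0.15 in NICD DNFB, 10.28 ± 0.31 in NICD vehicle and 10.20 ± 0.19 in control DNFB ears. They lay close together and below the mean in control vehicle ears (10.77 ± 0.27, SD). This order across genotypes depended on scaling. With each array centred on its median, NICD minus control was -0.16 in vehicle ears (adjusted p 0.531). In DNFB ears it was 0.54 (adjusted p 0.0178).

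Icam2 encodes ICAM-2, a constitutive endothelial ligand of the Itgal and Itgb2 integrin that also lies at endothelial junctions. It read 7.56, 7.68, 7.98 and 7.39 in NICD DNFB ears, against 7.35, 7.53, 7.71 and 7.23 in NICD vehicle ears (difference 0.20 ± 0.15, adjusted p 0.329). Among control mice Icam2 ranged from 7.12 to 7.77 (median 7.39) in DNFB ears and from 7.56 to 7.89 (median 7.78) in vehicle ears. The groups overlapped in both genotypes, with means of 7.65 ± 0.25 in NICD DNFB, 7.46 ± 0.21 in NICD vehicle, 7.44 ± 0.24 in control DNFB and 7.74 ± 0.13 in control vehicle ears (SD). Icam2 fell by 0.31 on the log2 scale in control mice (SE 0.12, adjusted p 0.0447), but kept the call in only 9 of 20 fits that left out 1 array, with adjusted p from 0.0162 to 0.113. It read -0.09 (adjusted p 0.532) in control mice once each array was set relative to its own Pecam1 value, since Pecam1 itself fell by 0.21 there (adjusted p 0.0170).

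Madcam1 encodes MAdCAM-1, the ligand of the Itga4 and Itgb7 integrin on high endothelial venules of the gut and of developing lymph nodes. It was the gene with the weakest claim to detection. It exceeded the array's median on 5 of 20 arrays, 1 in NICD DNFB, 3 in NICD vehicle, 1 in control DNFB and 0 in control vehicle ears, and its mean position on an array was percentile 44.4. It read 3.17, 3.47, 3.54 and 3.52 in NICD DNFB ears, against 3.83, 3.81, 3.58 and 3.62 in NICD vehicle ears. These groups did not overlap, yet the difference of -0.28 ± 0.18 did not pass (adjusted p 0.251). The lack of overlap is a description only, as Madcam1 passed the filter mainly through NICD vehicle arrays, the higher group. Among control mice Madcam1 ranged from 3.14 to 3.93 in DNFB ears and from 2.95 to 3.94 in vehicle ears, fully overlapping (0.18 ± 0.15, adjusted p 0.330). Its 4 group means were 3.43 ± 0.17 in NICD DNFB, 3.71 ± 0.13 in NICD vehicle, 3.58 ± 0.27 in control DNFB and 3.39 ± 0.35 in control vehicle ears (SD). No detection p was used, so whether skin endothelium expressed it at all was not settled.

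Alcam encodes ALCAM, which binds CD6 on T cells as well as its own kind on neighbouring cells. It read 6.40, 5.80, 5.95 and 5.72 in NICD DNFB ears, against 4.52, 4.57, 4.31 and 4.88 in NICD vehicle ears. In control mice it ranged from 5.77 to 6.60 (median 6.01) in DNFB ears and from 3.90 to 5.40 (median 5.03) in vehicle ears. Every DNFB array lay above every vehicle array of its genotype. Alcam rose by 1.40 ± 0.27 in NICD mice (2.64-fold, adjusted p 0.000273) and by 1.26 ± 0.22 in control mice (2.40-fold, adjusted p 6.64e-05). It passed in all 20 fits that left out 1 array in both genotypes. The 2 DNFB groups (5.97 ± 0.30 in NICD and 6.14 ± 0.36 in control mice) did not differ past the threshold, nor did the 2 vehicle groups (4.57 ± 0.24 in NICD and 4.88 ± 0.55 in control mice, SD).

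Mcam encodes MCAM, or CD146, an endothelial junction and pericyte antigen. It read 11.03, 10.85, 10.83 and 10.84 in NICD DNFB ears, against 10.90, 10.83, 10.90 and 10.83 in NICD vehicle ears (difference 0.02 ± 0.11, adjusted p 0.895, 95% interval -0.20 to 0.24). In control mice it ranged from 10.49 to 10.88 in DNFB ears and from 10.61 to 10.87 in vehicle ears (-0.07 ± 0.09, adjusted p 0.539, 95% interval -0.25 to 0.11). All 4 groups overlapped. It was the steadiest of the 7, with a pooled spread within groups of 0.12, smaller than that of all but 3.84% of probe sets tested. It lay between percentiles 98.9 and 99.4 of every array. Its group means were 10.89 ± 0.09 in NICD DNFB, 10.87 ± 0.04 in NICD vehicle, 10.69 ± 0.17 in control DNFB and 10.76 ± 0.11 in control vehicle ears (SD). Of 11 pericyte and smooth muscle markers, 8 fell in NICD mice and 10 in control mice with DNFB, and their part in the Mcam values was not tested.

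Cd99l2 encodes a junctional protein that acts late in diapedesis, the passage between endothelial cells. It read 6.27, 6.34, 5.97 and 5.94 in NICD DNFB ears, against 6.98, 6.85, 6.84 and 7.02 in NICD vehicle ears. In control mice it ranged from 4.99 to 6.34 (median 5.74) in DNFB ears and from 6.61 to 7.11 (median 6.82) in vehicle ears. Every DNFB array lay below every vehicle array of its genotype, and the control DNFB arrays were the more scattered (SD 0.52, against 0.22 in control vehicle ears). Cd99l2 fell by 0.80 in NICD mice (SE 0.22, adjusted p 0.00697) and by 1.12 in control mice (SE 0.18, adjusted p 3.11e-05), on the log2 scale. It passed in all 20 fits that left out 1 array in both genotypes. Means were 6.13 ± 0.20 in NICD DNFB, 6.92 ± 0.09 in NICD vehicle, 5.73 ± 0.52 in control DNFB and 6.85 ± 0.22 in control vehicle ears (SD). The vehicle groups of both genotypes were nearly level as deposited. With each array centred on its median, NICD minus control in vehicle ears was 0.40 (adjusted p 0.196). It was 0.27 under quantile normalization (adjusted p 0.402) and 0.33 under cyclic loess (adjusted p 0.290).

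**Figure D2:**
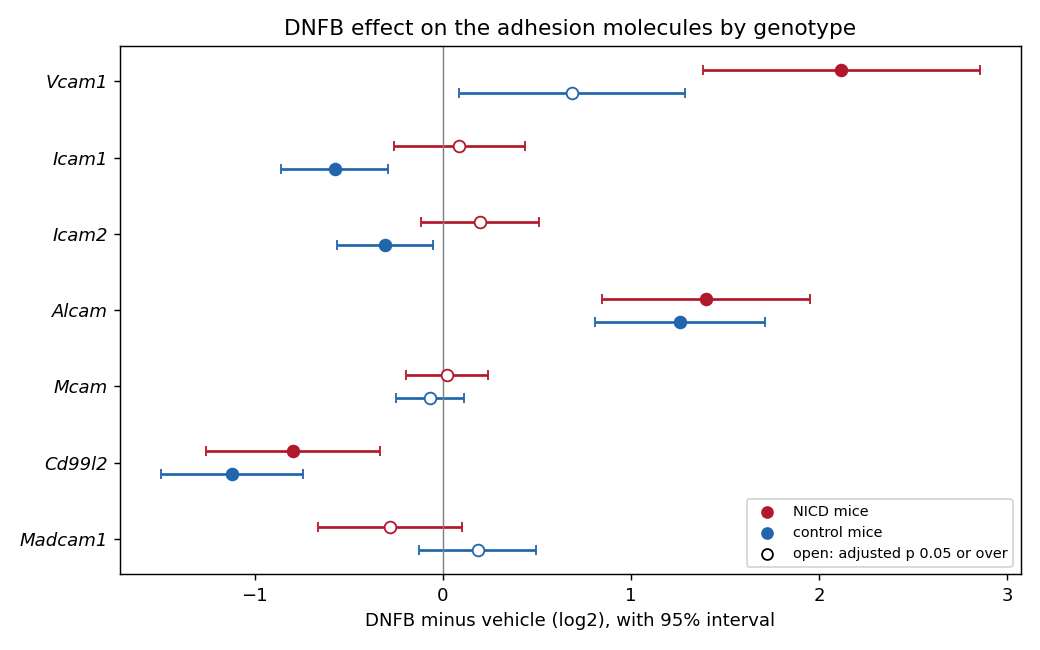
Difference between DNFB and vehicle ears (log2) for each gene in NICD mice and in control mice, with 95% intervals (4 against 4 and 6 against 6 arrays). Filled points passed an adjusted p of 0.05. Vcam1 reaches 2.12 in NICD mice and 0.69 in control mice, Alcam rises and Cd99l2 falls in both, and Icam1 and Icam2 fall in control mice.

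The difference between these DNFB effects asks whether the response depended on genotype. None of the 7 passed, while 2 of the 14886 probe sets did (0.0134%), and limma's unadjusted p was under 0.05 for 3 of the 7 and for 1580 probe sets. The DNFB effect on Vcam1 was 1.43 ± 0.46 larger in NICD than in control mice (adjusted p 0.273, 95% interval 0.48 to 2.38). The value was at percentile 99.97 of all probe sets and ranged from 1.19 to 1.66 over the 20 fits that left out 1 array. For Icam1 the effects differed by 0.66 ± 0.22 (adjusted p 0.274) and for Icam2 by 0.51 ± 0.19 (adjusted p 0.349), each with a call for a fall in control mice and none in NICD mice. Madcam1 (-0.46 ± 0.24, adjusted p 0.50), Cd99l2 (0.32 ± 0.29, adjusted p 0.726), Alcam (0.14 ± 0.34, adjusted p 0.920) and Mcam (0.09 ± 0.14, adjusted p 0.860) had smaller differences. A DNFB effect that differed between genotypes was therefore not shown for any of the 7, and the intervals given are not adjusted for the number of probe sets.

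Vcam1 and Icam1 share an induction route in the textbook account, and they were set against each other within each array, which cancels any shift common to an array. The pair was chosen because the genes were seen to move apart, so the values are a description with no test. Vcam1 minus Icam1 averaged -3.45 ± 0.55 in NICD DNFB ears and -5.48 ± 0.14 in NICD vehicle ears (SD, n = 4 each), a change of 2.03. It averaged -4.09 ± 0.69 in control DNFB ears and -5.36 ± 0.63 in control vehicle ears (SD, n = 6 each), a change of 1.26. The arrays of NICD DNFB and NICD vehicle ears lay apart (-4.11 to -2.85, against -5.63 to -5.32), and those of control mice overlapped (-5.24 to -3.18 in DNFB ears, against -6.37 to -4.73 in vehicle ears).

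The second comparison sets NICD against control mice under the same treatment. In DNFB ears Vcam1 was 0.82 ± 0.32 higher in NICD mice (1.76-fold, adjusted p 0.0490), and the other 6 did not pass, with 40.5% of all probe sets passing (5.45% higher and 35.1% lower). The groups overlapped, with 6.35 to 7.34 in NICD DNFB ears and 4.89 to 7.25 in control DNFB ears. The call held in 4 of 20 fits that left out 1 array (0.57 to 1.05, adjusted p 0.00726 to 0.147), and leaving out control DNFB replicate 3 gave the lowest value. Cd99l2 (0.40 ± 0.20, adjusted p 0.121), Icam2 (0.22 ± 0.14, adjusted p 0.210), Mcam (0.20 ± 0.10, adjusted p 0.105), Icam1 (0.17 ± 0.15, adjusted p 0.385), Alcam (-0.17 ± 0.24, adjusted p 0.589) and Madcam1 (-0.15 ± 0.17, adjusted p 0.503) did not pass.

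In vehicle ears Icam1 was lower in NICD mice (difference -0.49 ± 0.15, adjusted p 0.0173), and the other 6 did not pass, with 35.9% of all probe sets passing (2.88% higher and 33% lower). Icam1 was 9.98 to 10.68 in NICD vehicle ears and 10.42 to 11.08 in control vehicle ears, and the groups overlapped. Vcam1 stood at -0.61 ± 0.32 (adjusted p 0.140), Alcam at -0.31 ± 0.24 (adjusted p 0.320) and Icam2 at -0.29 ± 0.14 (adjusted p 0.105). Madcam1 (0.32 ± 0.17, adjusted p 0.142), Mcam (0.11 ± 0.10, adjusted p 0.40) and Cd99l2 (0.07 ± 0.20, adjusted p 0.807) stood on the other side of 0. In neither treatment did the groups of the 2 genotypes lie apart for any of the 7, whereas they did for 25% of all probe sets in DNFB ears and 24.1% in vehicle ears.

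These genotype differences depended on how arrays were scaled. The median of all probe sets tested was -0.27 in DNFB ears and -0.28 in vehicle ears as deposited, and 0.10 and 0.05 once each array was centred on its own median. Of the 7, Vcam1 and Cd99l2 stood farthest above that shift in DNFB ears. After centring, 5 of the 7 were higher in NICD DNFB ears and 0 lower, with 28.8% of all probe sets passing (20.7% higher and 8.12% lower). They were Vcam1 (1.19, adjusted p 0.00992), Cd99l2 (0.77, adjusted p 0.00922), Icam2 (0.59, adjusted p 0.00373), Mcam (0.57, adjusted p 0.000369) and Icam1 (0.54, adjusted p 0.0178). Quantile normalization and cyclic loess kept Vcam1 (1.03 and 1.13) and Cd99l2 (0.68 and 0.64) above the threshold and none of the others. With each array set relative to its Pecam1 value none passed, Vcam1 being at 0.84 (adjusted p 0.0576).

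In vehicle ears the scalings disagreed on which gene passed. The Icam1 difference was -0.16 after centring (adjusted p 0.531), -0.41 after quantile normalization (adjusted p 0.0519), -0.42 after cyclic loess (adjusted p 0.0501) and -0.49 relative to Pecam1 (adjusted p 0.0223). The Madcam1 difference was 0.64 after centring, 0.60 after quantile normalization and 0.65 after loess, each under an adjusted p of 0.05. Its probe set needed 4 arrays above their median to be tested and had 5, of which 3 were NICD vehicle arrays, the group that is higher here, so these values are a description and not a result. Mcam was higher after centring alone (0.43, adjusted p 0.00567), with 18.4% of all probe sets passing there (11.9% higher and 6.54% lower). The Vcam1 difference in DNFB ears kept its sign under each of these scalings and passed under 4 of the 5. Its call as deposited held in only 4 of 20 fits that left out 1 array. Icam1, Icam2, Mcam and Cd99l2 in DNFB ears also kept their sign under all 5, as did several differences in vehicle ears.

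**Figure D3:**
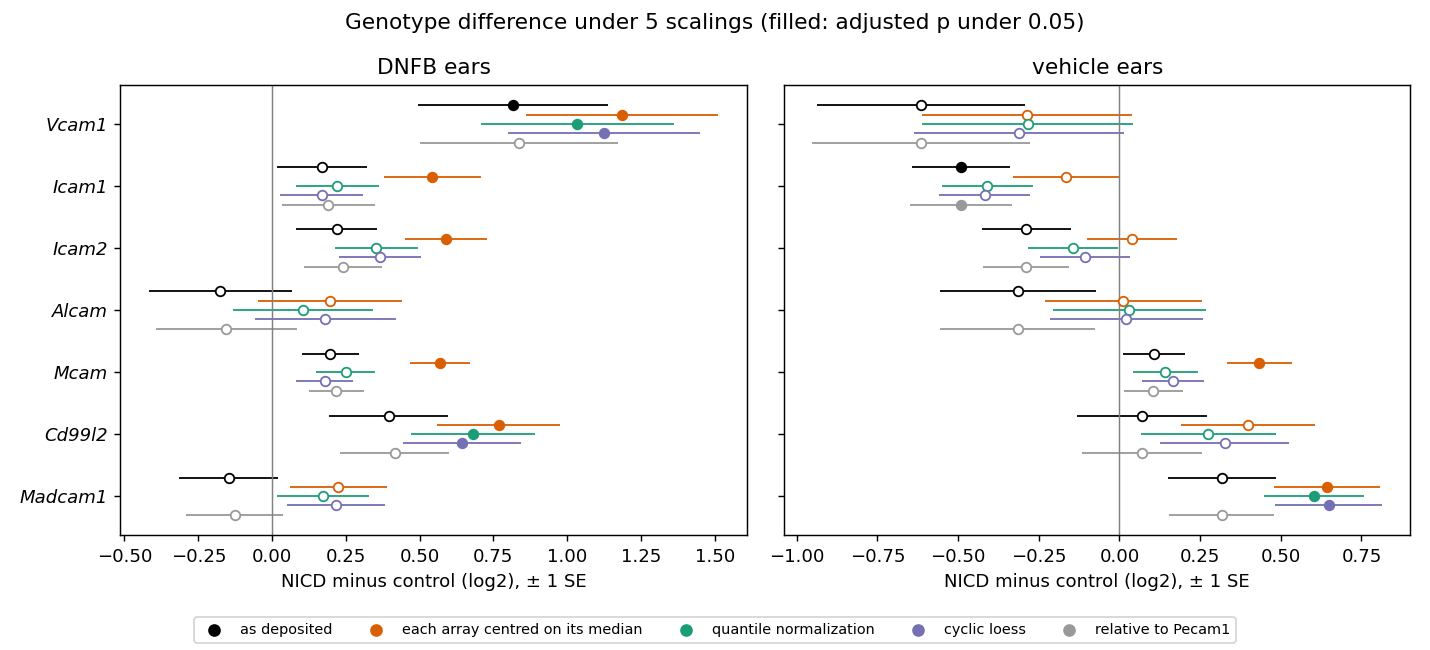
Difference between NICD and control mice (log2, ± 1 SE) in DNFB ears and in vehicle ears for each gene under 5 scalings of the arrays. Filled points passed an adjusted p of 0.05. In DNFB ears Vcam1 lies between 0.82 and 1.19 under all 5, while Alcam and Madcam1 lie on both sides of 0.

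Genes of other steps of leukocyte recruitment, in lists that were drawn up with earlier results of these data known, give the setting. Counts in these lists and in the marker lists stand against 20% of all probe sets higher and 18.1% lower with DNFB in NICD mice. In control mice the shares were 23.7% higher and 23.6% lower. Of the leukocyte integrin subunits and CD6, which include receptors of the products of Vcam1, Icam1, Icam2, Madcam1 and Alcam, 8 of 10 were tested. In NICD mice 3 rose and 0 fell with DNFB: Itgam by 1.80 ± 0.25, Itgb2 by 0.68 ± 0.22 and Itgb1, which endothelium itself expresses, by 0.66 ± 0.10. In control mice 4 rose and 0 fell: Itgam by 2.25 ± 0.21, Itgal by 0.82 ± 0.20, Itgb1 by 0.66 ± 0.08 and Itgb2 by 0.47 ± 0.18. Itga4, Itgb7, Itga9 and Cd6 did not pass in either genotype, nor did Itgal in NICD mice (0.54 ± 0.24, adjusted p 0.0831). Itgax and Itgad fell below the filter. The list's median difference was 0.46 in NICD and 0.36 in control mice, against 0.01 and -0.00118 over all probe sets.

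The sort excluded CD45+ cells, yet markers of leukocytes moved with DNFB as well. Ptprc, which encodes CD45, averaged 4.86 in NICD DNFB and 3.30 in NICD vehicle ears, and 5.00 in control DNFB and 3.79 in control vehicle ears. It rose by 1.56 in NICD and 1.21 in control mice. Of 7 neutrophil markers tested, 6 rose in NICD and 7 in control mice, and their summed level was 8.91 to 9.22 in NICD DNFB and 6.28 to 6.56 in NICD vehicle ears, and 8.66 to 10.87 in control DNFB and 6.26 to 6.67 in control vehicle ears (log2 of summed linear values). Of 8 neutrophil markers measured, 0 lay below the array's median on every array of either DNFB group, and 4 did in NICD vehicle and 5 in control vehicle ears. Macrophage and dendritic cell markers (7 tested) rose for 3 in NICD and 4 in control mice, and platelet markers (4 tested) for 3 and 4, with 0 lower. Of 8 fibroblast markers tested, 2 rose and 2 fell in NICD mice, and 3 rose and 0 fell in control mice. Of 9 keratinocyte markers tested, 3 rose and 1 fell in NICD mice, and 4 rose and 2 fell in control mice. Among the 2 T and NK cell markers and the 4 Schwann cell and melanocyte markers tested, 0 passed in either genotype. The part of these cells in the Vcam1, Alcam and Cd99l2 values was not tested.

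Endothelial markers went the other way. Of 15 pan-endothelial markers, 8 fell and 1 rose in NICD mice, and 13 fell and 0 rose in control mice. Their summed level was 14.00 to 14.23 in NICD DNFB and 14.33 to 14.49 in NICD vehicle ears, and 13.81 to 14.11 in control DNFB and 14.45 to 14.68 in control vehicle ears. Of 7 venous markers, 4 fell in NICD and 6 in control mice. The falls of Cd99l2, Icam1 and Icam2 thus stood beside falls of other endothelial transcripts, and their part in one another was not tested. Lymphatic markers (6 tested) differed mainly by genotype, with 4 higher in NICD DNFB than in control DNFB ears and 5 higher in NICD vehicle than in control vehicle ears.

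Among 17 other endothelial adhesion and diapedesis molecules tested, 3 rose and 5 fell with DNFB in NICD mice, and 2 rose and 10 fell in control mice. The hyaluronan receptor Cd44 rose by 2.25 ± 0.24 in NICD and 3.05 ± 0.20 in control mice, and the junctional receptor Pvr by 1.41 ± 0.11 and 1.03 ± 0.09. Jam2, a tight junction molecule of the same immunoglobulin family, fell by 1.19 (SE 0.18) in NICD and by 2.00 (SE 0.14) in control mice. E-selectin, encoded by Sele and like Vcam1 a classical target of inflammatory cytokines, fell by 1.65 (SE 0.15) in control mice, and in NICD mice its difference was -0.45 ± 0.19 (adjusted p 0.0638). Bst1 rose by 1.65 ± 0.23 in NICD mice and was 0.36 ± 0.19 higher in control mice (adjusted p 0.125).

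Inside the endothelial cell, engaged ICAM-1 and VCAM-1 are held in docking structures by linkers to the actin cytoskeleton and by tetraspanins. Of 18 such genes tested, 4 rose and 3 fell in NICD mice, and 5 rose and 5 fell in control mice. These counts were near the shares over all probe sets (20% higher and 18.1% lower in NICD mice, 23.7% and 23.6% in control mice). The alpha-actinin gene Actn1 rose by 1.11 ± 0.12 in NICD and 0.68 ± 0.10 in control mice, and the membrane linker Msn (moesin) by 0.86 ± 0.10 and 0.54 ± 0.08. Cav1, the main protein of endothelial caveolae, fell by 1.03 (SE 0.10) in NICD and by 1.01 (SE 0.08) in control mice. The tetraspanin Cd9 fell by 0.44 (SE 0.11) in NICD and by 0.31 (SE 0.09) in control mice.

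Upstream, 6 of 12 receptors for inflammatory cytokines rose and 2 fell in each genotype. Il17ra rose by 1.47 ± 0.18 in NICD and 2.23 ± 0.15 in control mice, and Il4ra, a receptor chain for the cytokines that induce VCAM-1 without E-selectin in cultured human endothelium, by 1.27 ± 0.12 and 0.56 ± 0.10. The gamma interferon receptor chain Ifngr1 fell by 0.47 (SE 0.13) in NICD and by 0.64 (SE 0.10) in control mice. Of 16 NF-kB subunits, inhibitors and feedback genes tested, 8 rose and 0 fell in NICD mice, and 8 rose and 3 fell in control mice. Tnfaip2 rose by 2.23 ± 0.19 in NICD and 1.88 ± 0.15 in control mice, Tnip1 by 1.30 ± 0.16 and 0.85 ± 0.13, and Traf1 by 1.16 ± 0.23 and 0.91 ± 0.19. The inhibitor gene Nfkbia, an immediate NF-kB target, differed by 0.02 ± 0.10 in NICD mice (adjusted p 0.894) and fell by 0.22 (SE 0.08) in control mice.

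Ectodomains of these molecules can be cut from the cell surface, VCAM-1 by ADAM17 among others. Of 9 sheddase and inhibitor genes, 3 rose and 2 fell in NICD mice, and 3 rose and 4 fell in control mice. The inhibitor gene Timp1 rose by 3.57 ± 0.27 in NICD and 3.10 ± 0.22 in control mice, Adam8 by 2.06 ± 0.40 and 2.48 ± 0.32, and Mmp14 by 1.54 ± 0.16 and 1.31 ± 0.13. The inhibitor gene Timp3 fell by 0.41 (SE 0.10) in NICD and by 0.74 (SE 0.08) in control mice. Of the high endothelial venule genes, among which Madcam1 would be counted, 5 of 11 were tested, and 1 rose and 1 fell in NICD mice and 1 rose and 3 fell in control mice. Ltbr, the lymphotoxin receptor of that list, rose by 0.49 ± 0.12 in NICD and 0.34 ± 0.09 in control mice, and Parm1 fell by 0.96 (SE 0.20) in NICD and by 0.60 (SE 0.16) in control mice.

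**Figure D4:**
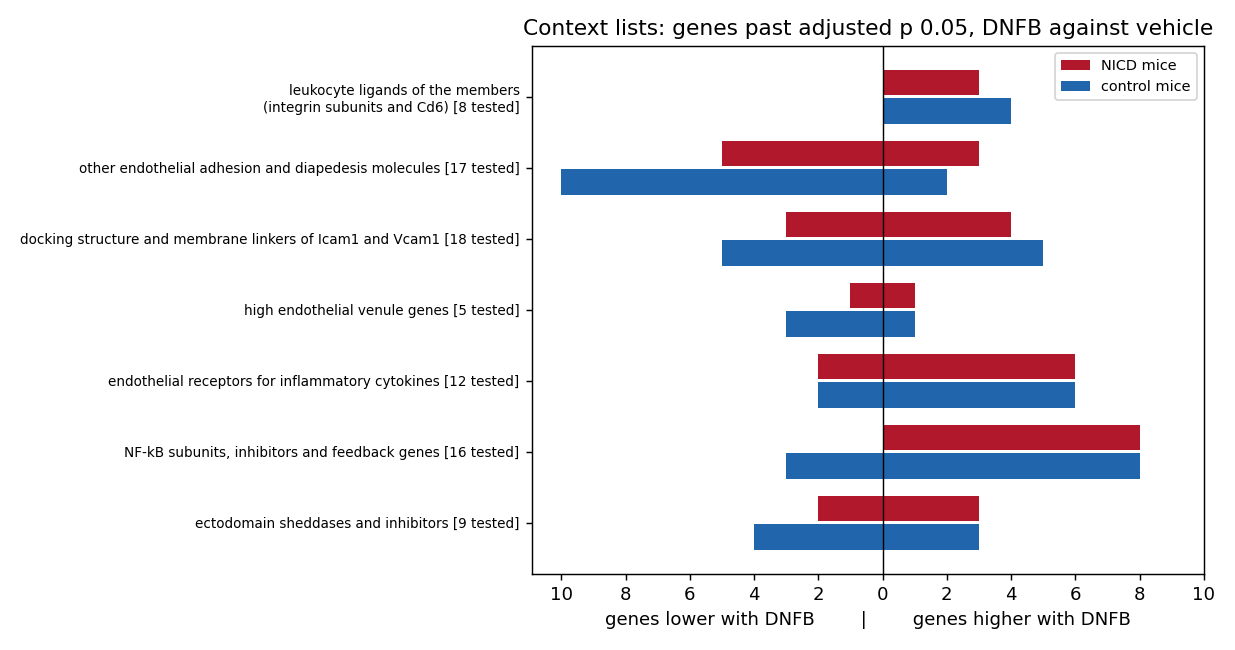
Number of genes past an adjusted p of 0.05 that were lower (left) or higher (right) with DNFB, in NICD mice and in control mice, for each list of recruitment genes. NF-kB genes include 8 that rose in each genotype, and other adhesion molecules include 5 that fell in NICD and 10 in control mice. Over all probe sets tested, 20% rose and 18.1% fell in NICD mice, and 23.7% rose and 23.6% fell in control mice.

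Genes whose values across the 20 arrays ran closest to each of the 7 were found over 12914 genes, after each array was centred on its median. These correlations describe arrays that fall into 4 groups and carry no test. Vcam1 ran with Gsdmd (r 0.92), which encodes the pore-forming protein gasdermin D, with the interferon-inducible ubiquitin-like gene Ubd (0.90) and with Ap2s1 (0.90). Within groups, once group means were removed, these correlations were 0.75, 0.80 and 0.74. Gsdmd rose by 1.00 in NICD mice and was 0.16 higher in control mice (adjusted p 0.379), and Ubd rose by 3.48 in NICD and 2.25 in control mice.

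Alcam ran with Gna13 (0.96), Gmfb (0.94) and the myeloid receptor gene Lilrb4a (0.94), which rose by 3.83 in NICD and 3.93 in control mice. Cd99l2 ran with Cldn5 (0.94), the claudin of endothelial tight junctions, with Fgd5 (0.94), an endothelial exchange factor gene, and with Tor3a (0.94). Cldn5 fell by 1.15 in NICD and by 1.35 in control mice, and Fgd5 fell by 1.37 in NICD and by 1.56 in control mice. Icam2 ran with the tetraspanin gene Cd151 (0.87), with Selenow (0.87) and with Esyt1 (0.85). Mcam ran with Resf1 (0.93), with S1pr1 (0.91), the endothelial sphingosine phosphate receptor, and with Sparc (0.91). Once group means were removed, these 3 Mcam correlations were lower, at 0.67, 0.66 and 0.45. Icam1 ran with Cuedc2 (0.85), Plxnb2 (0.84) and Bvht (0.82), and Madcam1 with Sec16b (0.82), Colca2 (0.80) and Mroh3 (0.76).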

How the data were processed

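The authors deposited 1 table of log2 RMA values per probe set for 20 arrays, made in Affymetrix Expression Console per the submitters' processing notes. Versions, options and the genome build are not given in the sources used here. The lowest value of an array was 1.18 to 1.30 in NICD and 0.412 to 0.590 in control arrays, and the log2 values were used as deposited, with no raw intensities. Groups came from the sample titles. Of 41345 probe sets, 23521 had 1 gene symbol in the platform annotation, 1814 several and 16010 none. Tested were the 14886 with 1 symbol that exceeded the median of their array on 4 or more arrays. limma 3.58.1 (R 4.3.3) fitted 1 mean per group over all 20 arrays, with 5 contrasts, Benjamini-Hochberg adjustment over all 14886, and recovery of known changes tested on simulated data. The number of arrays limits the precision.

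The 7 genes, the lists of ligands, other adhesion molecules, docking genes, venule genes, cytokine receptors, NF-kB genes, sheddases and cell type markers, and the tests were chosen with earlier results of these data known. Named were the 7 genes, all ligands on the list, Pecam1 and the 3 genes most correlated with each of the 7. From each other list came up to 4 genes with the largest differences past the threshold in a comparison. Ptprc, Xist and Eif2s3y were named outside this rule, with their values known. Alternatives were other filters, scalings, variance models, replicate blocks, a 2-fold limit and leaving out each array. The lowest-mean probe set gave no alternative, since each gene had 1, and sex could not be a covariate, since each genotype had 1 sex. Motifs were searched in the 250 bases upstream of starts in RefSeq (GRCm38.p6).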

Additional observations from a re-analysis of the deposited data

Results flagged for a closer look

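Mcam in NICD DNFB replicate 1 read 11.03, apart from the 10.83 to 10.85 of the other 3 NICD DNFB arrays, a gap that passed Dixon's 95% critical value for a group of 4 (ratio 0.895). Chance alone passes about 1 in 20 groups, and 28 groups of the 7 genes were examined. Without that array the Mcam difference between DNFB and vehicle in NICD mice was -0.02.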

How the results depend on the processing

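Of 1164 single-gene alternatives, 1076 kept direction and side of the threshold, 42 lost and 30 gained the threshold, and 16 changed sign, 0 of them with a call. The number of the 7 past the threshold for DNFB in NICD mice was 3, and 5 relative to Pecam1 and 2 with a 2-fold limit. For DNFB in control mice it was 4, and 2 with that limit. It was 3 there with no filter or all probe sets. It was 5 there with the 60th percentile filter, quantile normalization, cyclic loess, relative to Pecam1, array weights or any replicate block. For NICD against control in DNFB ears it was 1, became 0 with no filter, with all probe sets, relative to Pecam1, with only the groups compared or with the 2-fold limit, 2 under quantile normalization, cyclic loess, trend with robust variances or array weights, and 5 after centring. In vehicle ears it was 1, became 2 after centring (Mcam and Madcam1, with Madcam1 tested mainly through NICD vehicle arrays) or with only the groups compared, and 0 with the 2-fold limit. Leaving out 1 array gave 3 to 3, 3 to 4, 0 to 1 and 0 to 2 for these 4 comparisons, and 0 to 0 for the difference of DNFB effects. Sign changes in DNFB ears were Alcam (0.20, 0.11 and 0.18) and Madcam1 (0.22, 0.17 and 0.22) under centring, quantile and loess, and in vehicle ears Alcam (0.0122, 0.0313 and 0.0220) under the same and Icam2 (0.0381) under centring. For DNFB in NICD mice they were Icam1 (-0.0707) and Mcam (-0.14) under loess, Icam1 without NICD vehicle replicate 1 (-0.0155, in a range of -0.0155 to 0.22 over single arrays left out) and Mcam without NICD DNFB replicate 1 (-0.0234, in a range of -0.0234 to 0.0414), for DNFB in control mice Mcam relative to Pecam1 (0.15), and for the difference of DNFB effects Alcam without NICD DNFB replicate 1 (-0.0036, in a range of -0.0036 to 0.337). The cause was not tested.

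Without both control DNFB replicate 3 and NICD vehicle replicate 4, a choice made after seeing the data, counts were 3, 4, 1, 1 and 0. Vcam1 then passed for DNFB in control mice (0.93, adjusted p 0.00575) and not between genotypes in DNFB ears (0.57, adjusted p 0.115). Madcam1 was lost to the 60th percentile filter.

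Probe sets past the threshold numbered 6036 between genotypes in DNFB ears, 3553 under quantile normalization, 3539 under loess and 801 with the 2-fold limit. In vehicle ears they numbered 5343, and 2741 centred, 2412 quantile, 2326 loess and 503 with the 2-fold limit. With that limit 1619 of 5665 remained for DNFB in NICD and 1693 of 7033 in control mice. For the difference of DNFB effects the 2 became 27 with trend, 17 with array weights, 20 with a random replicate block, and 0 to 29 leaving out 1 array. The other settings gave 0 to 3.

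Samples with the same replicate number deviated together weakly, with r of 0.0418 to 0.269 over 10 pairs, 5 of them over 0.1. Of the DNFB samples, 7 of 10 were closest to the vehicle sample of their own number. The labels name no pairs, so the main fit left the numbers out, and whether they mark pairs is not settled. With a replicate block on numbers 1 to 6, 5 of the 7 passed for DNFB in control mice, Vcam1 among them (adjusted p 0.0234), and 0 for genotype in vehicle ears (Icam1 -0.41, adjusted p 0.0575). Vcam1 in control mice also passed with the block within genotype (adjusted p 0.00479) and as a random block (0.0379).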
